A study of Mus musculus with 40 samples.

Results

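The genes Sox17, Hhex, Hnf4a, Foxa1, Foxa3 and Cpm, which mark definitive endoderm and the gut tube that forms from it, were taken by symbol as 6 rows of the 26906 in a table of gene counts and were followed in all 40 libraries. The cells were mouse embryonic stem cells (CGR8, a line of strain 129) that had been left to form epiblast-like aggregates in N2B27, a serum-free medium, with Activin-A, Fgf2 and KSR added. XAV939 aggregates received that inhibitor from 0 to 72 h, and untreated aggregates did not. Poly(A) RNA was read at days 3, 4, 5, 6 and 7 in 4 libraries for each arm and day. XAV939 blocks tankyrase and so stabilises Axin, which lowers Wnt/β-catenin signalling. Titles of the untreated libraries say that there was no matrigel and those of the XAV939 libraries are silent on it, so a difference in matrigel between the arms cannot be told apart from XAV939. All libraries came from 1 cell line, and no label ties a replicate to a culture of its own, so p-values measure the spread between these libraries.

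Definitive endoderm arises at the primitive streak, where Nodal or Activin signalling acts together with Wnt, and it later folds into the gut tube. Sox17 is a transcription factor needed for definitive endoderm and is also made in vessels. Foxa1 and Foxa3 are forkhead factors that open chromatin in endoderm and its derivatives, and Foxa1 is also made in the floor plate. Hhex is a homeobox factor of anterior endoderm, liver and thyroid that early endothelium also makes. Hnf4a is a nuclear receptor of visceral endoderm, liver and intestine. Cpm is the gene of carboxypeptidase M, an enzyme at the cell surface that trims basic residues from peptides, and is written here as Cpm to keep it apart from CPM, the unit of level.

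The genes lie on 6 chromosomes (mm10, gene bounds of GENCODE M21). Sox17 lies at chr1:4490931-4497354 on the minus strand and Hhex at chr19:37434810-37440731 on the plus strand. Hnf4a lies at chr2:163506808-163572910 (plus), Foxa1 at chr12:57540628-57546916 (minus), Foxa3 at chr7:19013284-19023538 (minus) and Cpm at chr10:117629500-117687352 (plus). On the opposite strand, Gm37587 overlaps Sox17 and Hnf4aos overlaps Hnf4a. Over all libraries these neighbours had 46 counts and 1 count, against 8570 for Sox17 and 1009 for Hnf4a, and no source states whether counting used the strand.

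The DNA just before the starts of the genes was compared among them. RefSeq (GRCm38.p6) gave 6 start windows for 5 of the 6 genes, and bases 250 to 51 before each start were searched on both strands for 5 short motifs. These were TGTTTAC for forkhead factors, CTTTGAT for TCF/LEF factors, AGATAAG for Gata factors, CAAAGTC for HNF4 and ACAATGG for SOX factors. The one match was a forkhead motif 141 bases before the Foxa1 start, in an intron of the longer Foxa1 model of GENCODE M21. It reads GTAAACA on the strand of the gene and is in capitals in the Foxa1 line. Of 32851 windows of the same length, 2.58% held the forkhead motif, and the other motifs were found in 2.29% to 3.13%. The Foxa1 window is shown for its match, and those of Hhex and of the upstream Hnf4a start for their contrast in base composition. G and C made up 77.0% of the Hhex window, with 23 CpG dinucleotides, against 47.5% and 1 CpG in the Hnf4a window and medians of 51.5% and 4 over all windows. The windows lie at chr12:57546162-57546361 on the minus strand for Foxa1, chr19:37434591-37434790 (plus) for Hhex and chr2:163506607-163506806 (plus) for Hnf4a. Hnf4a has another start within its gene, and the counts, being per gene, do not say which start was used.
Foxa1: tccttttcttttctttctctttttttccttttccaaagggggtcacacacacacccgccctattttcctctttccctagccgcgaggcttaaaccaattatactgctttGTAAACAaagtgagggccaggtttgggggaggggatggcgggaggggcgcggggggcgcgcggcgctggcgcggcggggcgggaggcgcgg
Hhex: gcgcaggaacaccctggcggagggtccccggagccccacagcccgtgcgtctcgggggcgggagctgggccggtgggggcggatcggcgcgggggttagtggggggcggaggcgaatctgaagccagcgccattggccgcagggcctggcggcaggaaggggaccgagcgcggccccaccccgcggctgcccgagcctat
Hnf4a: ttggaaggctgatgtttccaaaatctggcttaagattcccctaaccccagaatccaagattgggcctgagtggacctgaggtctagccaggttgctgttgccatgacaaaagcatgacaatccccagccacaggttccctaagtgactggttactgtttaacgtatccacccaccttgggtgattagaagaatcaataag

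Libraries held 30197759 to 44086019 counts. Among libraries of 1 group the lowest mean correlations of log2 CPM with the other 3 belonged to day 6 untreated library 3 (0.960) and day 4 untreated library 1 (0.971), so results at those days are also given without them where that changes a call. Levels are given in CPM (counts relative to the total of the library), after totals were adjusted by trimmed means of M values (TMM). Each log2 fold change sets XAV939 over untreated and has its standard error (SE) beside it. A gene was called below an adjusted p of 0.05 in the quasi-likelihood test of edgeR, adjusted over 16878 genes. All 6 genes passed the filter on low counts. Libraries with the same replicate number at the same day deviated together. A fit that blocks on replicate number within a day (the replicate block) is therefore given beside a result of the 6 genes wherever it changed a call. For the gene lists it is given as counts of called genes. Calls by DESeq2 are given without a share over all genes.

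All 6 genes were higher at day 7 than at day 3 in each arm. The days of their steps differed, which was not tested between genes. In untreated aggregates Sox17 was up by day 5, and Foxa1 and Hhex were up by day 5 and higher again at day 6. Hnf4a, Foxa3 and Cpm had their steepest step between days 5 and 6, and Foxa3 and Cpm were also called higher at day 5 than at day 4. Sox17, Hhex, Hnf4a and Foxa3 had their highest untreated mean at day 6, and Foxa1 and Cpm at day 7. In XAV939 aggregates Sox17 also had its highest mean at day 6, and the other 5 at day 7.

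**Figure D1:**
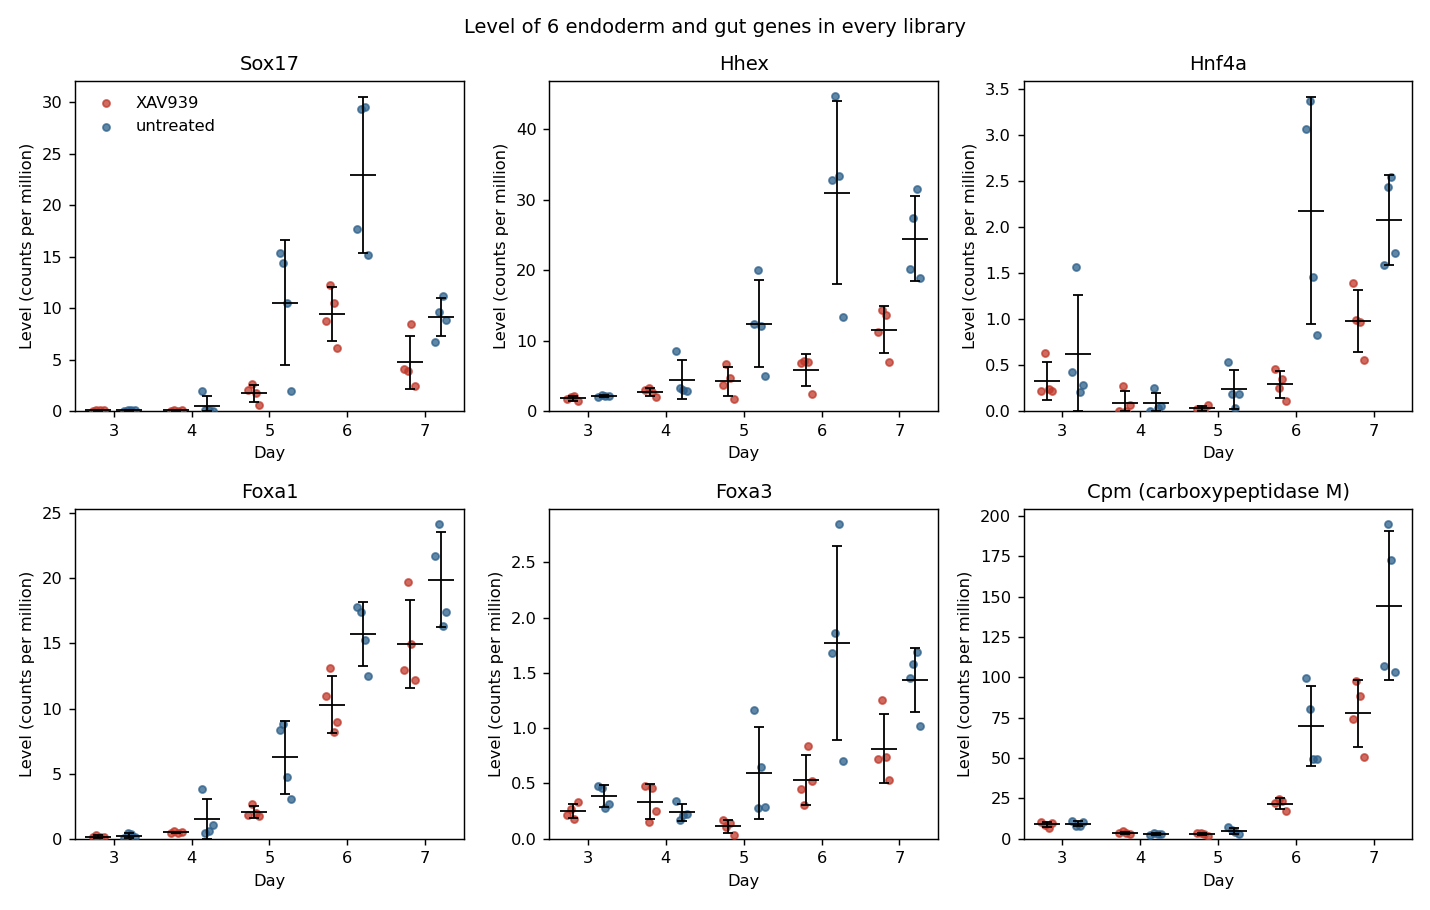
Level in CPM of the 6 genes (vertical axis, linear) at days 3 to 7 (horizontal axis) in XAV939 (red) and untreated (blue) aggregates; each point is a library, and bars give the mean and 1 SD of 4 libraries, with the axis ending at 0. The untreated points stand above the XAV939 points for most libraries from day 5 on, with Hhex at day 6 at 2.42 to 7.13 CPM in XAV939 libraries and 13.3 to 44.6 CPM in untreated ones.

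Sox17 was near 0 at day 3, with 0.0704 ± 0.0394 CPM in XAV939 and 0.0820 ± 0.0394 CPM in untreated aggregates (SD, n = 4 each). At day 4 the XAV939 libraries 1 to 4 had 0.0301, 0.122, 0.0288 and 0.126 CPM, and the untreated ones 1.99, 0.111, 0.0605 and 0 CPM. Untreated library 1 stood alone, and the other 3 untreated libraries were in the range of the XAV939 ones. At day 5 the XAV939 libraries had 2.05, 2.60, 1.72 and 0.625 CPM, against 15.3, 14.4, 10.5 and 1.95 CPM in the untreated libraries. The groups overlapped through untreated library 4 alone. At day 6 Sox17 had 8.77, 12.2, 10.5 and 6.10 CPM in XAV939 libraries, against 17.7, 29.4, 29.5 and 15.1 CPM in untreated ones, with no overlap. At day 7 it had 4.08, 3.88, 8.47 and 2.46 CPM in XAV939 libraries, against 6.74, 9.58, 11.2 and 8.86 CPM in untreated ones. XAV939 library 3 reached into the untreated range there.

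Hhex had a low level already at day 3, with 1.82 ± 0.327 CPM in XAV939 and 2.14 ± 0.116 CPM in untreated aggregates. At day 4 the untreated libraries had 8.55, 3.28, 3.05 and 2.85 CPM, and the XAV939 mean was 2.72 ± 0.553 CPM. As for Sox17, untreated library 1 was the high one. At day 5 Hhex had 3.76, 6.68, 4.64 and 1.74 CPM in XAV939 libraries, against 12.4, 20.1, 12.1 and 4.97 CPM in untreated ones. At day 6 it had 6.80, 7.13, 7.02 and 2.42 CPM in XAV939 libraries, against 32.7, 44.6, 33.3 and 13.3 CPM in untreated ones. The groups overlapped at day 5, through library 4 of the untreated arm, and not at day 6. At day 7 Hhex had 11.3, 14.4, 13.6 and 6.96 CPM in XAV939 libraries, against 20.2, 27.4, 31.5 and 18.8 CPM in untreated ones, again with no overlap. In the order of its 10 group means, day 7 XAV939 (11.6 ± 3.33 CPM) came just after day 5 untreated (12.4 ± 6.16 CPM), and the ranges of these neighbours overlapped.

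Foxa1 had a higher mean at each day than at the day before in both arms. At day 4 it had 0.451, 0.579, 0.461 and 0.502 CPM in XAV939 libraries, and 3.80, 0.445, 0.635 and 1.06 CPM in untreated ones. At day 5 it had 1.82, 2.71, 2.0 and 1.74 CPM in XAV939 libraries, against 8.36, 8.85, 4.78 and 3.03 CPM in untreated ones. Every untreated library of day 5 was above every XAV939 library. The arms overlapped again at day 6, with 10.9, 13.1, 8.19 and 8.93 CPM in XAV939 libraries and 17.8, 17.4, 15.3 and 12.5 CPM in untreated ones. At day 7 the means were 14.9 ± 3.38 CPM in XAV939 and 19.9 ± 3.63 CPM in untreated aggregates. The highest XAV939 mean of Foxa1 was 75.1% of its highest untreated mean, the largest such share of the 6 genes.

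Foxa3, the other forkhead gene, stayed under 3 CPM in every library. At day 5 it had 0.168, 0.110, 0.143 and 0.0329 CPM in XAV939 libraries, against 1.16, 0.282, 0.650 and 0.289 CPM in untreated ones, with no overlap. Foxa3 rested there on 6, 4, 5 and 1 counts in XAV939 libraries and 39, 12, 23 and 11 counts in untreated ones. At day 6 it had 0.453, 0.303, 0.837 and 0.521 CPM in XAV939 libraries, against 1.68, 1.86, 2.84 and 0.703 CPM in untreated ones. Here the groups overlapped, since untreated library 4 was below XAV939 library 3. The day 7 means were 0.813 ± 0.311 CPM in XAV939 and 1.44 ± 0.293 CPM in untreated aggregates.

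Hnf4a was low throughout, with its lowest mean at day 5 in XAV939 and at day 4 in untreated aggregates, and its highest at day 7 in XAV939 and at day 6 in untreated ones. The day 3 libraries had 0.213, 0.632, 0.243 and 0.220 CPM in XAV939 aggregates, and 0.424, 1.56, 0.205 and 0.287 CPM in untreated ones. Library 2 was the highest in both arms. At day 5 the gene rested on 1, 1, 0 and 2 counts in XAV939 libraries and 18, 8, 1 and 7 counts in untreated ones, so its fold change there is imprecise. At day 6 it had 0.453, 0.248, 0.351 and 0.104 CPM in XAV939 libraries, against 3.06, 3.37, 1.45 and 0.821 CPM in untreated ones. At day 7 it had 1.39, 0.984, 0.972 and 0.559 CPM in XAV939 libraries, against 1.58, 2.44, 2.54 and 1.72 CPM in untreated ones. The groups did not overlap at either day.

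Cpm had the highest level of the 6 genes at days 3, 6 and 7 in both arms, also per kilobase of exon. It was lower at days 4 and 5 than at day 3, with 3.71 ± 0.602 CPM in XAV939 and 3.03 ± 0.377 CPM in untreated aggregates at day 4. At day 5 it had 3.28, 3.42, 3.01 and 1.97 CPM in XAV939 libraries, and 7.32, 5.53, 4.16 and 3.13 CPM in untreated ones, overlapping through untreated library 4. At day 6 Cpm had 22.1, 24.5, 23.3 and 17.0 CPM in XAV939 libraries, against 99.6, 80.3, 49.1 and 49.6 CPM in untreated ones. At day 7 it had 74.2, 97.7, 88.4 and 50.4 CPM in XAV939 libraries, against 107, 195, 173 and 103 CPM in untreated ones. The groups were apart at both days, and the range of the day 7 XAV939 libraries overlapped that of the day 6 untreated ones.

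Per kilobase of exon, the order of the means of the 6 genes differed between the arms at day 6, and this order was not tested. In XAV939 aggregates it was Cpm (3.64 CPM per kilobase), Foxa1 (3.09), Sox17 (1.97), Hhex (1.16), Foxa3 (0.260) and Hnf4a (0.0599). In untreated aggregates it was Cpm (11.7 CPM per kilobase), Hhex (6.13), Sox17 (4.80), Foxa1 (4.73), Foxa3 (0.869) and Hnf4a (0.451). Hhex was thus the second gene of the untreated order and the fourth of the XAV939 order, while Foxa3 and Hnf4a were at the bottom in both. The untreated means of Hhex, Sox17 and Foxa1 were close for their SDs of 2.57, 1.59 and 0.732 CPM per kilobase, so their order among themselves is uncertain. Over the 10 group means of a gene, ordered from high to low, the ranges of neighbouring groups overlapped in all 9 steps for Sox17, Hhex and Foxa3, in 8 for Hnf4a, in 7 for Foxa1 and in 6 for Cpm.

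The comparison of XAV939 with untreated aggregates asks what early exposure to the inhibitor did to these genes on and after the day it ended. The 6 genes were chosen with earlier results of these data known, so how many of them were called is no test of the set. Over the 5 days jointly, the F test called all 6 genes, where 5.8% of the genes tested were called. Its adjusted p-values from edgeR were 0.00031 for Cpm, 0.000346 for Hhex, 0.00145 for Foxa3, 0.00732 for Sox17, 0.0108 for Hnf4a and 0.0115 for Foxa1. All 6 calls held with each of the 40 libraries left out in turn. In the fit without a block the calls by single days fell at days 5 and 6. The replicate block within day also called Cpm, Hhex and Hnf4a lower at day 7.

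At day 3, the day on which XAV939 exposure ended, none of the 6 genes was called by edgeR or DESeq2, and none had an unadjusted p below 0.05. Background calls were as rare, with 0.00592% of genes called lower. At day 4 none was called either, where 0.0178% of genes were called lower. Sox17 (log2 fold change -2.78, SE 0.968, edgeR adjusted p 0.452) and Foxa1 (-1.57, SE 0.466, adjusted p 0.287) had unadjusted p-values below 0.05. Over all genes, 944 of 16878 did, in either direction. Without untreated library 1 the Sox17 value was 0.37 and the Foxa1 value -0.51, neither with an unadjusted p below 0.05. Of 24 pairs of same-numbered libraries over the 6 genes, the XAV939 library was the lower one in 18 at day 3 and in 11 at day 4.

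At day 5, 4 of the 6 genes were called lower in XAV939 than in untreated aggregates, where 1.43% of the genes tested were called lower. Sox17 had 16.6% of its untreated mean (log2 fold change -2.58, SE 0.607, edgeR adjusted p 0.0168). Foxa3 had 19.1% of its untreated mean (-2.31, SE 0.501, adjusted p 0.00953), Foxa1 33.1% (-1.59, SE 0.403, adjusted p 0.0268) and Hhex 34% (-1.55, SE 0.390, adjusted p 0.0256). Hnf4a, at -2.84 (SE 1.06, adjusted p 0.182), and Cpm, at -0.78 (SE 0.259, adjusted p 0.118), were not called. With the replicate block within day all 6 were called lower, with 4.41% of all genes, and the adjusted p-values of Hnf4a and Cpm were 0.00932 and 0.00402. These calls rest on few libraries: all 4 were lost without XAV939 library 4 (adjusted p 0.0661 to 0.157), without untreated library 1 (0.0735 to 0.109) and in a fit of only the 8 libraries of the day with no block (0.0916 to 0.143). Without untreated library 2 Foxa3 alone was called, without XAV939 library 1 Hhex and Foxa1 were lost, without XAV939 library 3 Foxa1 was lost, and without untreated library 4 Cpm was gained.

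At day 6, 4 of the 6 genes were called lower in XAV939 than in untreated aggregates, with 2.95% of the genes tested called lower. Hhex had 18.9% of its untreated mean (log2 fold change -2.41, SE 0.396, edgeR adjusted p 0.00044), Hnf4a 13.3% (-2.90, SE 0.659, adjusted p 0.00732), Cpm 31.2% (-1.68, SE 0.243, adjusted p 0.000171) and Foxa3 29.9% (-1.73, SE 0.404, adjusted p 0.00847). Sox17, at -1.29 (SE 0.565, adjusted p 0.240), was not called, nor was Foxa1, at -0.61 (SE 0.380, adjusted p 0.464). With the replicate block within day Sox17 was called too (adjusted p 0.0128, with 5.9% of all genes called lower). The 4 calls held with each library left out, except that Foxa3 was lost without untreated library 3 (adjusted p 0.0584), while a fit of only the 8 libraries of the day with no block called none (0.105 to 0.17 for the 4 genes).

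At day 7 edgeR called none of the 6 genes, where 0.00592% of the genes tested, a single gene, were called lower. The estimates were all negative and smaller, from -1.08 for Hhex (SE 0.379, adjusted p 0.279) and for Hnf4a (SE 0.593, adjusted p 0.742) to -0.41 for Foxa1 (SE 0.378, adjusted p 1). Cpm stood at -0.89 (SE 0.237, adjusted p 0.113), Sox17 at -0.94 and Foxa3 at -0.82. At an unadjusted p below 0.05 in edgeR there were 3 genes, with 1326 of 16878 genes over all, in either direction. DESeq2 called 1, Cpm (adjusted p 0.0456). With the replicate block within day Cpm (adjusted p 0.00191), Hhex (0.00201) and Hnf4a (0.0431) were called lower, with 1.32% of all genes.

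**Figure D2:**
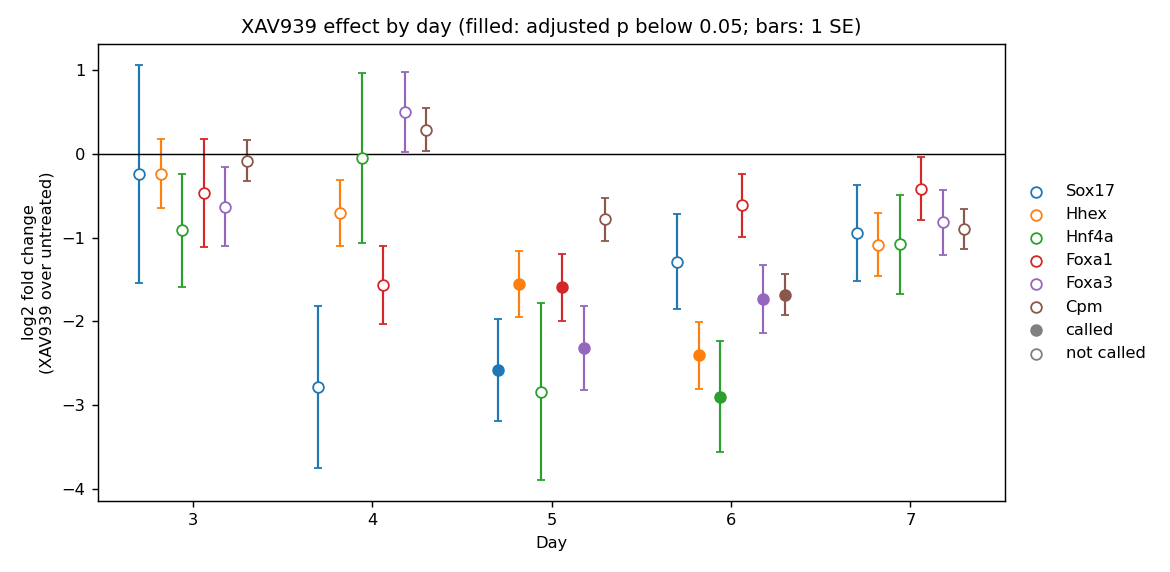
Log2 fold change of XAV939 over untreated (vertical axis) for the 6 genes at each day (horizontal axis), from the edgeR fit without a block; bars are 1 SE, filled points have an adjusted p below 0.05. Filled points stand at day 5 for Sox17, Hhex, Foxa1 and Foxa3 and at day 6 for Hhex, Hnf4a, Foxa3 and Cpm.

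Within pairs of libraries that share a replicate number the direction was uniform from day 5 on. For each of the 6 genes the XAV939 library was below its untreated partner in all 4 pairs, and so in 24 of 24 pairs at day 5, at day 6 and at day 7. Over all genes tested, 14.2% were lower in all 4 pairs at day 5, 13.3% at day 6 and 14.1% at day 7, and the 24 pairs of a day are 6 genes read in the same 4 pairs of libraries. At day 6 Hhex had 16% to 21.1% of the partner's level over the 4 pairs, a narrow range. Foxa3 had 16.3% to 74.1% over the same pairs. At day 7 the shares were 37.0% to 56.0% for Hhex, 48.8% to 69.2% for Cpm and 59.6% to 91.4% for Foxa1. The groups as wholes did not overlap, with XAV939 below, for 2 genes at day 5 (Foxa1 and Foxa3, background 4.02%), for 4 at day 6 (Sox17, Hhex, Hnf4a and Cpm, background 3.82%) and for 3 at day 7 (Hhex, Hnf4a and Cpm, background 2.81%). Libraries numbered 4 were often the lowest of their group, in XAV939 aggregates for 5 of 6 genes at day 5, 4 at day 6 and all 6 at day 7, and in untreated ones for 4, 5 and 3 of 6 at those days.

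**Figure D3:**
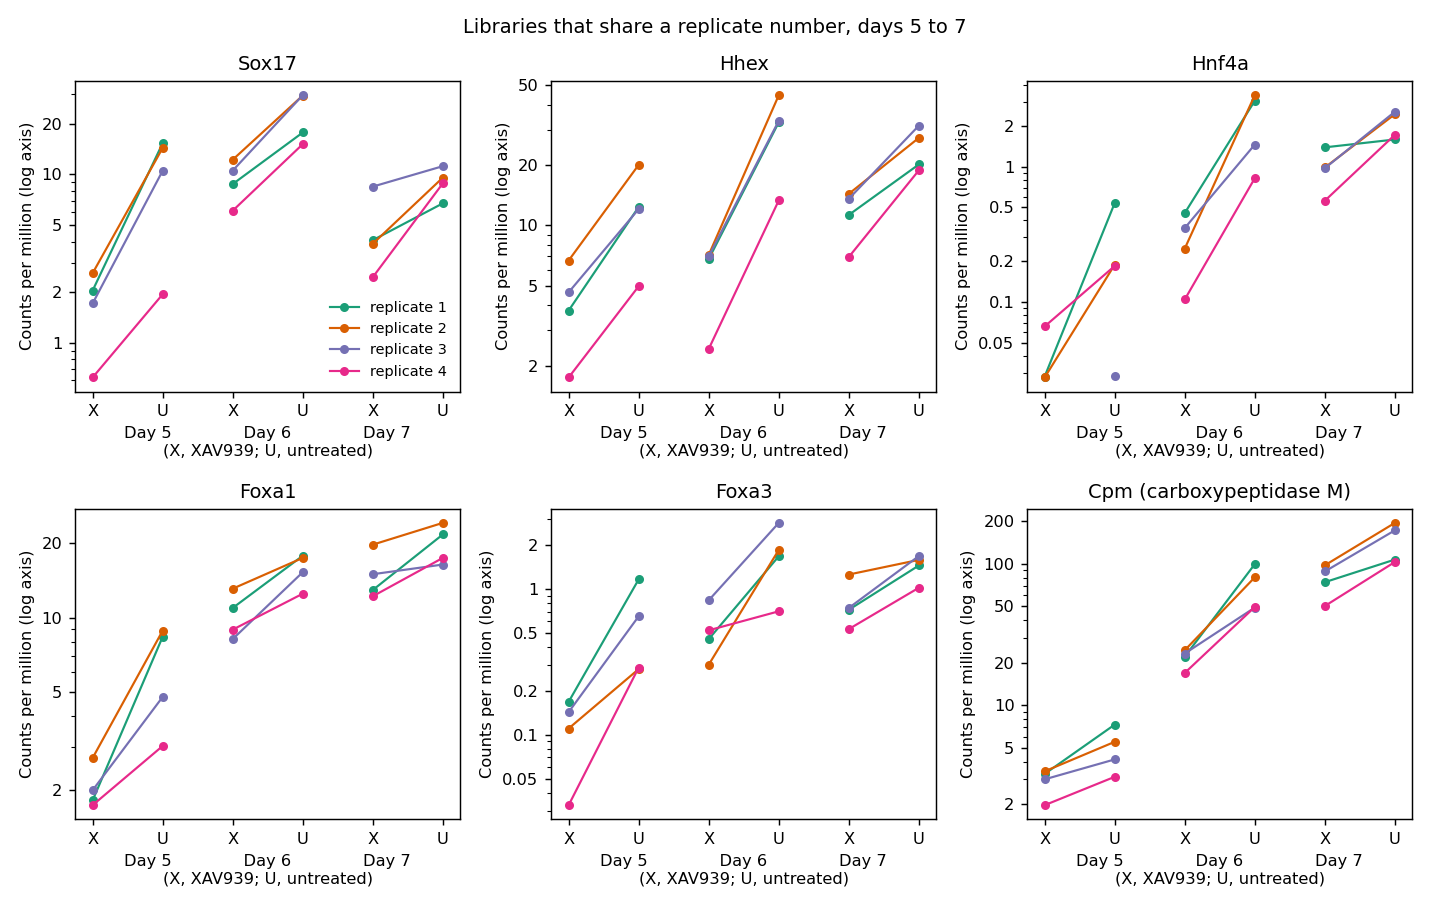
Level in CPM on a log axis for the 6 genes at days 5, 6 and 7, XAV939 (X) left of untreated (U), with a line joining libraries of the same replicate number (colours). All drawn lines go up from X to U; Hnf4a in XAV939 library 3 at day 5 was at 0 counts and is not drawn.

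The size of the XAV939 effect changed with the day for Cpm (F test of the change over the 5 days, edgeR adjusted p 0.0391, background 0.231%), whose log2 fold change was 0.29 at day 4, -1.68 at day 6 and -0.89 at day 7. This call held in 14 of the 40 fits with 1 library left out (adjusted p 0.00933 to 0.114). The other 5 genes were not called, with adjusted p-values of 0.201 for Foxa3 to 1 for Sox17. With the replicate block within day Cpm (0.000124), Hhex (0.00041), Foxa3 (0.0233) and Hnf4a (0.0351) were called, with 2.6% of all genes. For the change between day 5 and day 7 alone edgeR called none of the 6, with 0.0118% of all genes called higher. DESeq2 called none either. At an unadjusted p below 0.05 in edgeR there were 2, with 906 of 16878 genes over all, in either direction. The effects of days 5 and 6 were not tested against each other, so a call at one of these days and not at the other is not shown to be a difference between them.

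Steps from day to day were compared within each arm. From day 3 to day 4, Foxa1 (2.59 on the log2 scale), Hhex (1.05) and Sox17 (2.67) rose in untreated aggregates, with 17.6% of all genes, and Cpm (-1.63) and Hnf4a (-2.80) fell, with 15.1%. In XAV939 aggregates Foxa1 rose (1.49, background 20.3%) and Cpm fell (-1.26, background 17.7%). Without day 4 library 1 the untreated Sox17 step was -0.48 and the Hhex step 0.52 (edgeR adjusted p 0.356), neither called, while the Foxa1 step was 1.53 and still called (adjusted p 0.00759). From day 4 to day 5, 5 genes rose in untreated aggregates (Sox17 4.28, Foxa1 2.07, Hhex 1.48, Foxa3 1.30 and Cpm 0.73, background 10.5%). In XAV939 aggregates Sox17 (4.48) and Foxa1 (2.05) rose, with 15.9% of all genes, and Foxa3 fell (-1.52, background 15.2%). Hhex was at 0.63 there and not called. Without day 4 untreated library 1 the untreated steps into day 5 were 7.43 for Sox17, 3.13 for Foxa1 and 2.01 for Hhex. That Sox17 step starts from 4, 2 and 0 counts at day 4, so its size is imprecise. The difference in steps between the arms was not tested. From day 5 to day 6, 5 genes rose in XAV939 aggregates (Hnf4a 3.16, Cpm 2.89, Sox17 2.42, Foxa1 2.31 and Foxa3 2.16, background 9.27%), with Hhex at 0.47 and not called. In untreated aggregates also 5 rose (Cpm 3.79, Hnf4a 3.22, Foxa3 1.58, Foxa1 1.33 and Hhex 1.32, background 11.1%), with Sox17 at 1.12 and not called. From day 6 to day 7 Cpm rose in XAV939 aggregates (1.84, background 4.2%) and in untreated ones (1.05, background 5.17%), and the other 5 were not called. Day 7 against day 3 called all 6 genes higher in XAV939 (background 36.8%) and in untreated aggregates (34.7%). The steps that single libraries decided were those of Foxa3 and Cpm into day 5, of Hnf4a into day 6 in XAV939 aggregates, of Hhex and Foxa1 into day 6 in untreated aggregates (without day 5 library 4), of Hnf4a over the whole course, and those called at day 4 other than Cpm in both arms and Foxa1 in the untreated arm.

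A wider list of 40 endoderm and gut genes, which holds the 6 and was written with results of these data known, put them in context. Of its 37 tested genes, 12 were called lower in XAV939 than in untreated aggregates at day 5 (background 1.43% called lower). At day 6, 14 were called lower (background 2.95%), and no gene was called higher at either day. At day 7 edgeR called none (14 lower at an unadjusted p below 0.05, DESeq2 1). Over all genes, 1326 of 16878 had an unadjusted p below 0.05 at that day, in either direction. The median log2 fold changes were -1.51, -1.29 and -0.76 at days 5, 6 and 7, against 0.01, -0.01 and -0.01 over all genes tested. With the replicate block within day 23, 20 and 13 genes were called lower at days 5, 6 and 7 (backgrounds 4.41%, 5.9% and 1.32%) and 0, 1 and 0 higher. Besides the 6, the list's lowest adjusted p-values over the 5 days belonged to Epcam, Cldn6, Cldn7, Gata4, Krt8 and Cdh1. Of these, 5 are surface, junction or keratin genes of epithelium, and Gata4 is a factor of endoderm and heart. At day 3, when Sox17 was near 0, the list already summed to 2495 to 3020 CPM in XAV939 and 2387 to 2704 CPM in untreated libraries. At day 6 the sum was 849 to 1216 CPM in XAV939 and 1554 to 3559 CPM in untreated libraries. How much of the sum came from endoderm was not tested. Gata4 had 1.78 ± 0.790 CPM in XAV939 and 17.3 ± 8.58 CPM in untreated aggregates at day 6 (log2 fold change -3.28, edgeR adjusted p 0.00111). Cdh1, the gene of E-cadherin, had 74.1 ± 22.1 CPM in XAV939 and 210 ± 78.1 CPM in untreated aggregates at day 6 (-1.50, adjusted p 0.000719). Epcam had 21.3 ± 5.71 CPM in XAV939 and 70.6 ± 33.3 CPM in untreated aggregates (-1.73, adjusted p 0.000197). Foxa2, the third gene of the Foxa family and also a gene of notochord and floor plate, was called over the 5 days jointly (edgeR adjusted p 0.0190) and was not called at any single day. It was at -2.79 at day 4 (adjusted p 0.0971; -1.01 without untreated library 1), -1.17 at day 5 (adjusted p 0.336) and -0.68 at day 6 (adjusted p 0.593).

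**Figure D4:**
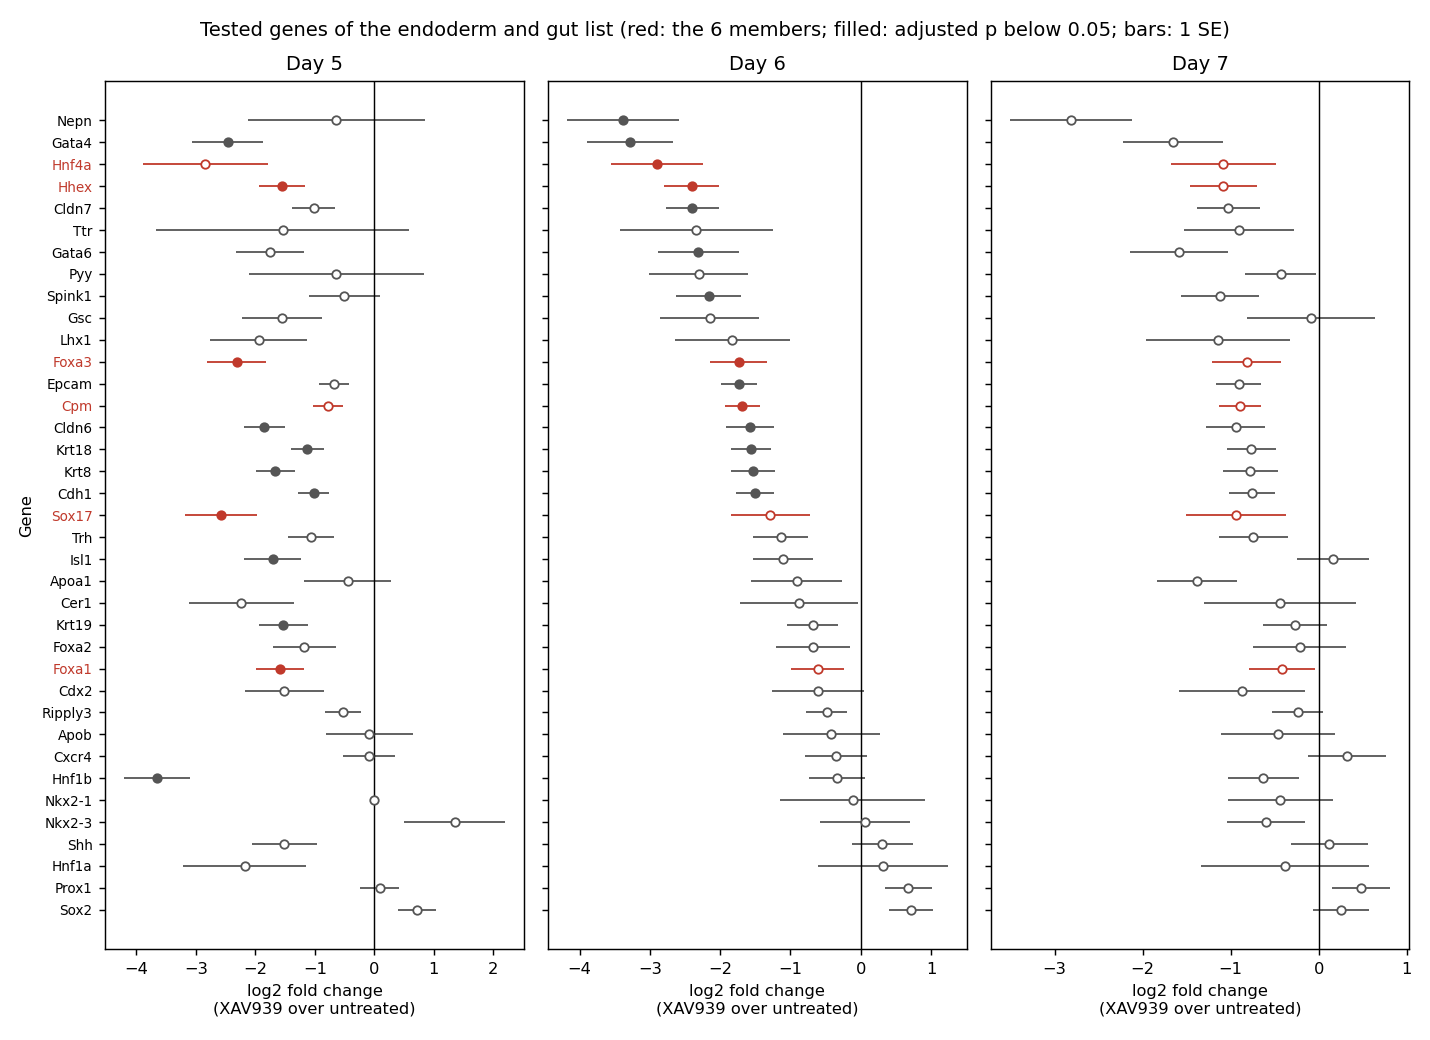
Log2 fold change of XAV939 over untreated (horizontal axis) at days 5, 6 and 7 for the 37 tested genes of the endoderm and gut list (rows, ordered by the day 6 value), with 1 SE; red marks the 6 genes and filled points an adjusted p below 0.05. At day 6 Gata4 stands at -3.28 and Hnf4a at -2.90, and no point is filled at day 7. Nkx2-1 had 0 counts in both groups at day 5 and is drawn at 0 with no bar.

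Several of the 6 genes are also made by other cell types, whose markers were measured in the same libraries; over all genes tested 1.43% were called lower at day 5 and 2.95% at day 6. Of 21 tested genes of extraembryonic endoderm, 5 were called lower at day 5, 4 at day 6 (Hnf4a among them) and 0 at day 7. That list holds Hnf4a itself and shares Gata6, Apob, Apoa1, Ttr and Afp with the endoderm list. With the replicate block within day 8, 8 and 7 were called lower at days 5, 6 and 7 (backgrounds 4.41%, 5.9% and 1.32%), and 1, 1 and 0 higher. The summed level of that list at day 6 was 472 to 579 CPM in XAV939 and 523 to 796 CPM in untreated libraries, and most of it came from genes that other cells make too, such as Lrp2, Col4a1 and Sparc. Of the secreted products in that list, at day 6 Apoc2 had 0 counts in both arms, Afp did not exceed 0.0252 CPM in XAV939 and 0.0267 CPM in untreated libraries, and Ttr did not exceed 0.0756 CPM in XAV939 and 0.267 CPM in untreated ones. Apoa4 averaged 0.0319 CPM in XAV939 and 0.115 CPM in untreated aggregates, Apoa1 0.0918 CPM in XAV939 and 0.179 CPM in untreated ones, Apob 0.872 CPM in XAV939 and 1.17 CPM in untreated ones, and Rbp4 2.36 CPM in XAV939 and 3.37 CPM in untreated ones. The part of extraembryonic endoderm in the Hnf4a values was not tested. Of 18 tested endothelial and blood genes, all had negative estimates at days 6 and 7, and edgeR without a block called 3 lower at day 6 and 0 at day 7. At an unadjusted p below 0.05 there were 13 lower at day 6 and 12 at day 7. Over all genes these numbers were 2658 and 1326 of 16878, in either direction. DESeq2 called 7 of the 18 lower at day 6 and 0 at day 7. With the replicate block within day 3, 9 and 4 were called lower at days 5, 6 and 7 (backgrounds 4.41%, 5.9% and 1.32%). Their summed level at day 6 was 35.6 to 53.6 CPM in XAV939 and 68.9 to 182 CPM in untreated libraries. Already at day 3, with Emcn at 0 counts in both arms, it was 68.5 to 78.0 CPM in XAV939 and 66.1 to 76.7 CPM in untreated libraries. How much of the sum came from vessels was not tested. At day 5, when Sox17 was called, 16 of the 18 estimates were negative and 2 genes were called lower. The sum was then 30.5 to 57.9 CPM in XAV939 and 55.9 to 141 CPM in untreated libraries. Flt1, a receptor for VEGF and the most abundant gene of the list, was called lower at day 5 (14.9 ± 6.18 CPM in XAV939 and 49.9 ± 24.8 CPM in untreated aggregates, log2 fold change -1.74, edgeR adjusted p 0.00508). The vessel cadherin Cdh5 averaged 0.0857 CPM in XAV939 and 0.177 CPM in untreated aggregates at day 5, and 0.452 CPM in XAV939 and 1.97 CPM in untreated aggregates at day 6. The part of vessels in the Sox17 and Hhex values was not tested.

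The primitive streak, from which endoderm arises, has markers that were measured alongside. All 12 tested genes of streak and mesendoderm had negative estimates at days 4, 5 and 6. At day 4 their median log2 fold change was -3.34 and 2 were called lower, Mixl1 and T (background 0.0178%). With the replicate block within day 0 were called at day 4. The day 4 sum was 88.6 to 205 CPM in XAV939 libraries, and 1381, 287, 170 and 197 CPM in untreated libraries 1 to 4. Without untreated library 1 the day 4 median was -0.53, 9 of the 12 estimates were negative and 0 genes were called. At day 5 edgeR without a block called 0 (7 lower at an unadjusted p below 0.05, and 0 by DESeq2). Over all genes, 2113 of 16878 had an unadjusted p below 0.05 at that day, in either direction. The replicate block within day called 7 of the streak genes lower at day 5 (background 4.41%). At day 6, 2 were called lower, Eomes and Nodal (background 2.95%), and 7 with the replicate block within day (background 5.9%). Eomes, a T-box factor upstream of definitive endoderm, had 12 ± 5.33 CPM in XAV939 and 69.6 ± 29.3 CPM in untreated aggregates at day 6 (log2 fold change -2.54, edgeR adjusted p 0.00176). Nodal had 5.27 ± 1.70 CPM in XAV939 and 14.5 ± 10.2 CPM in untreated aggregates (-1.45, adjusted p 0.0424). The streak list summed to 186 to 520 CPM in XAV939 and 681 to 1127 CPM in untreated libraries at day 5, with no overlap. Of 13 tested Nodal and Activin genes 3 were called lower at day 6 (background 2.95%). With the replicate block within day 3 were called lower at day 5 (background 4.41%) and 4 at day 6 (background 5.9%). The receptor-activated factor Smad2 had a log2 fold change of -0.02 at day 6 (edgeR adjusted p 0.965). The list of 12 cardiac genes shares Gata4, Gata6 and Isl1 with the endoderm list. Of its genes, 3 were called lower at day 5 (background 1.43%) and 4 at day 6. With the replicate block within day these counts were 4 and 6 (backgrounds 4.41% and 5.9%). Of 12 notochord and floor plate genes 1 was called lower at day 5 and 0 at day 6 (1 at an unadjusted p below 0.05, and 0 by DESeq2). With the replicate block within day these counts were 3 and 0 (backgrounds 4.41% and 5.9%). Of 7 kidney genes 1 was called lower at day 5 and 0 at day 6 (2 unadjusted, 0 by DESeq2). That block called 3 and 2 of the kidney genes lower (backgrounds 4.41% and 5.9%). Over all genes, 2658 of 16878 had an unadjusted p below 0.05 at day 6, in either direction. Fewer endoderm cells and less RNA of these genes per cell cannot be told apart in bulk samples.

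Among themselves the 6 genes had Pearson correlations of log2 CPM over the 40 libraries of 0.480 (Sox17 and Hnf4a) to 0.927 (Sox17 and Foxa1). These values share the rise with time that all 6 genes show. With each group's mean taken out the range was -0.01 to 0.737, and the highest value was that of Sox17 and Hhex. Over the same libraries and among 14675 genes with at least 1 CPM in some group, the gene most like Sox17 was Samd3 (0.970), the one most like Hhex was Gata4 (0.964), and the one most like Foxa1 was Foxc1 (0.976). For Hnf4a it was Tspan1 (0.912), for Foxa3 Fcgbp (0.872), and for Cpm the imprinted gene H19 (0.968). Gata4 was first for Hhex also with group means taken out (0.838), where Gm45623 was first for Sox17 (0.841), Bmp2 for Foxa1 (0.764), Tbx3 for Hnf4a (0.742), Elovl1 for Foxa3 (0.784) and Ccdc68 for Cpm (0.805). Same-numbered libraries of a day deviated together and all share scaling by library totals, so these values describe this set of libraries.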

How the data were processed

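Aggregates of mouse embryonic stem cells gave poly(A) RNA for stranded TruSeq libraries, sequenced as read pairs on a HiSeq instrument, per the labels' protocols. The authors deposited raw counts per gene, and the submitters' processing notes name bcl2fastq 2.20.0 and the build mm10. No aligner, counter or strand setting was found in the labels or the file header. Columns were matched to samples by title. The 6 genes and all gene lists were chosen with earlier results of these data known.

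Counts were tested in R 4.3.3 with edgeR 4.0.16 and limma 3.58.1. filterByExpr (minimum count 10) kept 16878 genes, TMM scaled the totals, and 1 quasi-likelihood model with 10 group means was fitted to 40 libraries. Deviations from the group mean correlated, across genes, between same-numbered libraries of 1 day in 20 of 20 pairs (0.145 to 0.523), and 19 correlated best with their own number. The main model had no block and did not use these pairs. Same-numbered libraries were treated as pairs only in the fits with a replicate block and where levels are compared within pairs. No 2 libraries of a group were copies (60 pairs, lowest chi-square per gene 10.9). The alternatives were DESeq2 1.42.0, relative log expression size factors, no filter, a filter of 5 CPM in 4 libraries, fits of only the libraries compared, replicate blocks over all days and within each day, and every library left out in turn. After the data had been seen, a block in the fit of 1 day and a fit leaving out both day 4 untreated library 1 and day 6 untreated library 3 were added. The procedure was tested on simulated data.

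Exon lengths came from GENCODE M21, which held 26857 of the gene identifiers. Of the wider endoderm list, the 6 genes with the lowest adjusted p over the 5 effects were named, and of other lists the most abundant; Foxa2, Mixl1, Cdh5 and the secreted products of extraembryonic endoderm were named after their values were seen. Likeness is Pearson's r of log2 CPM (prior count 2). Per library, 3 counts correspond to 0.067 to 0.11 CPM, a floor for counting error only.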

Additional observations from a re-analysis of the deposited data

Results flagged for a closer look

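Within each group of 4 libraries, a value was singled out where its gap to the nearest other value, as a share of the range, passed Dixon's critical value at the 95% level. Of 60 groups (6 genes in 10 groups) 6 had such a value, where chance gives about 1 in 20. In day 4 untreated library 1, Sox17 was at 1.99 CPM and Hhex at 8.55 CPM, each far above the rest of its group. Hhex in day 6 XAV939 library 4 was far below its group, at 2.42 CPM. At day 3, Hnf4a was far above its group in library 2 of both arms, at 0.632 CPM in XAV939 and 1.56 CPM in untreated aggregates, and so was Foxa1 in XAV939 library 2, at 0.301 CPM. The XAV939 effect on Cpm differed between the days in the F test (edgeR adjusted p 0.0391), with a log2 fold change of -1.68 at day 6 and -0.89 at day 7. No cause of these values was tested.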

How the results depend on the processing

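The joint test of the 5 XAV939 effects called all 6 genes under every alternative run, except that the filter of 5 CPM removed Hnf4a and Foxa3 and called the other 4. Other counts of called genes moved as follows, and beyond the smaller number of genes or libraries in some fits the cause was not tested. For XAV939 against untreated, the fit of only the libraries compared called 0 at day 5 and 0 at day 6, against 4 each, and the filter of 5 CPM called 2 at day 6. At day 7, against 0, DESeq2 called 1, the replicate block over all days 2, the replicate block within day 3 and the block in the fit of 1 day 2. For the change of effect over days, against 1, DESeq2 called 2, no filter 0, the replicate block over all days 2 and the replicate block within day 4. For day 4 against day 3, XAV939 aggregates gave 1 with no filter and 1 with relative log expression factors, against 2. Untreated ones gave 3 without the pair of libraries that stand apart, 3 with no filter and 3 with only the libraries compared, against 5. For day 5 against day 4 untreated, no filter gave 3 and only the libraries compared 1, against 5. For day 6 against day 5, the filter of 5 CPM gave 3 in each arm and only the libraries compared 3 in untreated aggregates, against 5. For day 7 against day 6 in XAV939 aggregates, only the libraries compared gave 2 and the replicate block over all days 3 (with Hhex and Hnf4a), against 1. The block over all days also called Cpm at day 5 and Hnf4a for day 4 against day 3 in XAV939 aggregates, and the block in the fit of 1 day called Sox17 and lost Foxa3 at day 6. Beyond these and the calls given with the results, no block changed a call of the 6 genes.

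With 1 library left out at a time, counts ran from 0 to 5 for XAV939 at day 5, 3 to 4 at day 6 and 0 to 1 for the change of effect over days. In XAV939 and untreated aggregates they ran from 1 to 2 and 3 to 5 for day 4 against day 3, 2 to 3 and 3 to 5 for day 5 against day 4, 4 to 5 and 3 to 5 for day 6 against day 5, and 5 to 6 in each for day 7 against day 3.

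The log2 fold changes that turned sign belonged to estimates that were small or rested on few counts, and no value was called after it had turned. As libraries were left out, XAV939 against untreated ran from -0.64 to 0.058 for Sox17, -1.45 to 0.11 for Hnf4a and -0.17 to 0.036 for Cpm at day 3, and from -3.20 to 0.37 for Sox17 and -1.92 to 1.41 for Hnf4a at day 4. The change of the Cpm effect between days 5 and 7 ran from -0.35 to 0.075. Day 4 against day 3 ran from -0.20 to 0.51 in XAV939 and from -0.48 to 3.08 in untreated aggregates for Sox17. Day 5 against day 4 in XAV939 aggregates ran from -1.97 to 0.47 for Hnf4a. Day 7 against day 6 in untreated aggregates ran from -0.35 to 0.21 for Hnf4a and from -0.56 to 0.026 for Foxa3. Without the pair of libraries that stand apart, Sox17 was at 0.37 for XAV939 at day 4 and at -0.48 for day 4 against day 3 untreated, and Foxa3 at 0.019 for day 7 against day 6 untreated. For that last step Hnf4a was at 0.13 with the replicate block over all days. Depth limits Hnf4a at days 4 and 5, which rests on few counts in a library. It also limits Foxa3 in XAV939 aggregates at day 5, with 1 to 6 counts in a library. Sox17 had 1 to 4 counts in a library at day 3 in each arm and at day 4 in XAV939 aggregates.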
